A study of Mus musculus with 7 samples.

Results

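Calcium pumps, the sodium-calcium exchanger and the genes of store-operated calcium entry were described in basal cells of the lactating mouse mammary gland. The set held 10 of the 56440 gene models of the expression table and was chosen by gene symbol: the pumps Atp2a2, Atp2c1, Atp2c2, Atp2b1, Atp2b2 and Atp2b4, the exchanger Slc8a1, and Stim1, Stim2 and Orai1 of store-operated entry. Each symbol had 1 row in the table (Atp2b4 is listed together with a microRNA inside it), and all 10 passed the filter on low values, which asked for 10 or more in 3 or more libraries. RNA was sequenced from cells sorted by flow cytometry on day 2 of lactation, in 3 libraries from mutants labelled a3a6KO (DKO and Blg positive in the sample titles) and 4 control libraries labelled Ctrl (Blg negative in the titles), which the submitters call biological replicates. The label a3a6KO names the integrin subunits α3 and α6, parts of receptors for laminin. Blg is, from general knowledge of the mouse line, a Cre recombinase under the beta-lactoglobulin promoter, which is active in the secretory luminal cells and not meant to act in the basal cells sequenced here, and the comparison asks how the basal neighbours of mutant luminal cells differ. Blg was positive in every mutant and negative in every control, so it cannot be told apart from the loss of the integrins. No exact allele, strain or age of the animals is given by the labels.

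Calcium has more than 1 task in this tissue. Oxytocin contracts the myoepithelial cells of the basal layer by releasing calcium from the endoplasmic reticulum through IP3 receptors. The pump SERCA2, encoded by Atp2a2, returns it to the store, and pumps of the plasma membrane (PMCA, the Atp2b genes) and the exchanger NCX1 (Slc8a1) move it out of the cell. When the store empties, STIM proteins in its membrane sense the loss and open ORAI channels of the plasma membrane. The secretory pathway pumps (SPCA, Atp2c1 and Atp2c2) load the Golgi. In luminal cells PMCA2 (Atp2b2) and SPCA2 (Atp2c2) are known for carrying calcium into milk, and SPCA2 is known to open ORAI1 without store depletion.

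The deposited values are counts per gene after scaling each library by its size factor, called normalised read counts here, and correspond to 9368418 to 18454773 reads in a3a6KO and 14480615 to 21548279 reads in Ctrl. Transcripts of the targeted genes were present in every library, with 494, 581 and 818 normalised read counts of Itga3 in a3a6KO replicates 1 to 3 and 719, 542, 465 and 654 in Ctrl replicates 1 to 4, and 9083, 8343 and 8574 of Itga6 in a3a6KO and 10338, 10603, 7764 and 8678 in Ctrl. These are values of whole genes in basal cells and do not check the deletion in luminal cells. All 12 myoepithelial markers were measured, with a summed level of 970566 to 1084466 in a3a6KO and 868777 to 1170392 in Ctrl. Most of the sum was Acta2, with 546497 to 673537 in a3a6KO and 460944 to 727845 in Ctrl, so it says little about the other markers. Of the 12, 4 had a log2 fold change of a3a6KO over Ctrl above 0, with a median of −0.065, and 0 passed the adjusted threshold given below. Milk transcripts were present in every library and differed widely, with a summed level of 10 genes from 126814 to 519602 in a3a6KO and from 175667 to 1209089 in Ctrl. The 15 endothelial markers summed to 11439 to 16878 in a3a6KO and 5780 to 9068 in Ctrl, without overlap, and the 5 red blood cell genes to 612 to 787 in a3a6KO and 25.1 to 359 in Ctrl, also without overlap. The sums of the pericyte, fibroblast and immune markers overlapped between the groups. Of the 9 pericyte and vascular smooth muscle markers, 8 still had a log2 fold change of a3a6KO over Ctrl above 0, where 49.5% of all tested genes did. Their median was 0.53, and 0 passed the adjusted threshold given below. The libraries are bulk samples, so fewer cells of a type and less RNA per cell cannot be told apart.

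Atp2a2 was by far the most abundant member per length. Levels were compared between genes as normalised read counts per kilobase of annotated exon (GENCODE M21, GRCm38). On that scale Atp2a2 averaged 2445 ± 862 in a3a6KO (SD, n = 3) and 2495 ± 420 in Ctrl (SD, n = 4), and 1.79% of the 13041 tested genes with an annotated length had a higher mean. Atp2c2 averaged 434 ± 86.6 in a3a6KO and 438 ± 229 in Ctrl, Stim1 254 ± 38.1 in a3a6KO and 228 ± 13.9 in Ctrl, and Orai1 189 ± 9.64 in a3a6KO and 172 ± 67.2 in Ctrl. Stim2, the weaker but more sensitive store sensor, averaged 35.2 ± 5.81 in a3a6KO and 31.7 ± 4.28 in Ctrl, and Atp2c1, the SPCA1 pump found in most cells, 30.4 ± 1.02 in a3a6KO and 32.5 ± 4.33 in Ctrl. The pumps and exchanger of the plasma membrane were the lowest of the 10. Per kilobase, Atp2b4 averaged 9.95 ± 1.64 in a3a6KO and 13.3 ± 0.967 in Ctrl, Atp2b1 8.87 ± 3.97 in a3a6KO and 7.61 ± 0.824 in Ctrl, Atp2b2 4.06 ± 1.64 in a3a6KO and 4.87 ± 4.17 in Ctrl, and Slc8a1 1.88 ± 0.808 in a3a6KO and 1.60 ± 0.773 in Ctrl, with 98.3% of the genes with a length above Slc8a1.

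Of the 9 neighbouring pairs in this order, 4 kept it in all 7 libraries: Atp2a2 over Atp2c2, Atp2c2 over Stim1, Orai1 over Stim2 and Atp2c1 over Atp2b4. Stim1 lay above Orai1 in 5 of the 7 libraries and Stim2 above Atp2c1 in 4. The 3 lowest pairs, Atp2b4 over Atp2b1, Atp2b1 over Atp2b2 and Atp2b2 over Slc8a1, held in 6 each. With the longest annotated transcript as the length, Stim1 at 568 per kilobase lay above Atp2c2 at 436, Atp2c1 at 54.3 above Stim2 at 34.6, and Atp2b1 at 17.4 above Atp2b4 at 12.4, so the order within these 3 pairs depended on the gene model. Exons of Atp2c1 share 1837 bases with Aste1 on the opposite strand, itself at 157 to 288 normalised read counts in a3a6KO and 186 to 270.1 in Ctrl, and the use of strand in counting is not given in the sources used here.

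**Figure D1:**
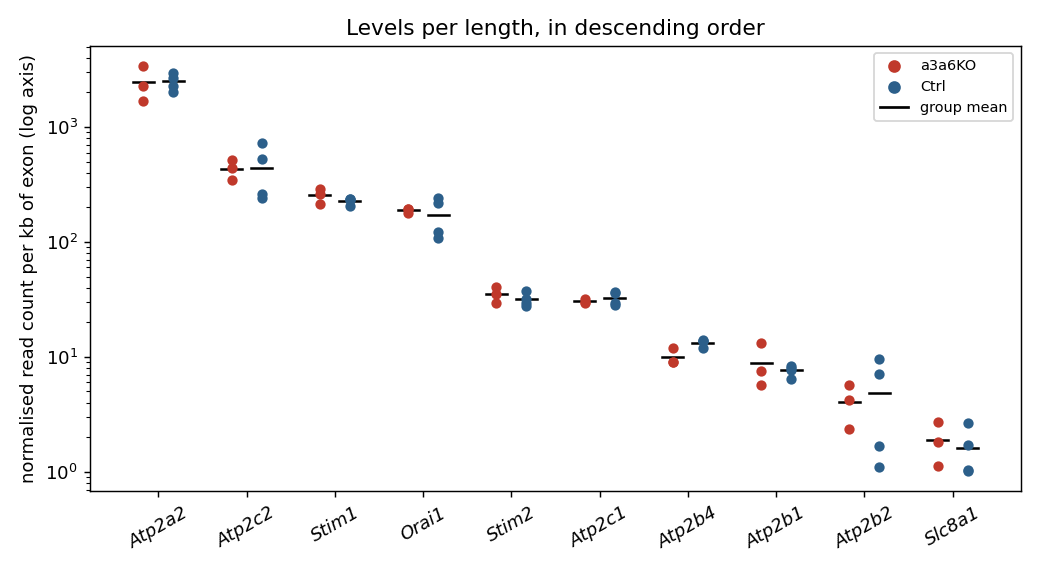
Normalised read count per kilobase of exon (log axis) of the 10 genes in descending order of their mean, with each point a library, 3 a3a6KO on the left and 4 Ctrl on the right of each gene, and a line at the group mean. Atp2a2 stands above the other genes in every library. The controls of Atp2c2, Orai1, Atp2b2, Slc8a1 and, over a narrower range, Atp2c1 fall into a high and a low pair.

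None of the 10 genes passed the test between the groups across all genes, and most intervals were wide. The test was limma on log2(value + 1), with a trend in its variance prior, two-sided, with Benjamini-Hochberg adjustment over 16889 genes and a threshold of 0.05, and it called 0% of all genes. The edgeR quasi-likelihood test on reads recovered from the values also called 0% of 17228 genes, and DESeq2 called 0.555% of 13164, with 0 of the 10 members in either. The members' limma adjusted p ran from 0.768 to 0.969. Of the 10, 7 had a log2 fold change above 0 and 3 below, where 49.5% of all tested genes lay above 0, and their median was 0.14 against −0.0040 over all tested genes. An unadjusted limma p under 0.05 was reached by 1 member, Atp2b4, which lay lower in a3a6KO, and by 6.32% of all genes, 2.78% of them lower and 3.55% higher. In edgeR the unadjusted p of Atp2b4 was 0.0459, where 5.98% of genes were under 0.05, and in DESeq2 it was 0.0540, where 6.96% were. Atp2b4 was also the 1 member whose groups did not overlap, as in 7.51% of all genes, 3.51% lower and 4% higher in a3a6KO.

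**Figure D2:**
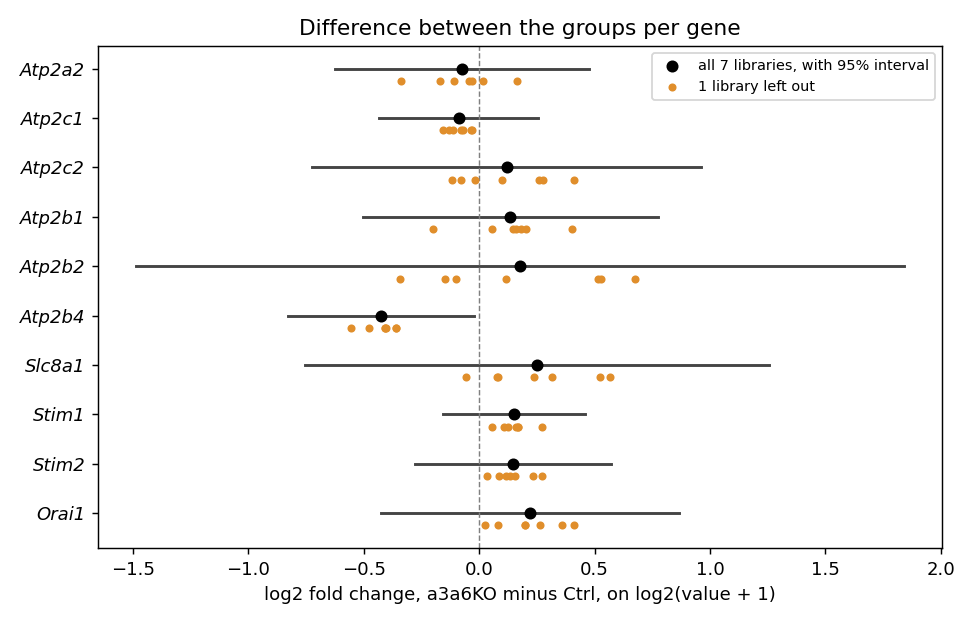
Difference of a3a6KO from Ctrl in log2(value + 1), the log2 fold change, for each of the 10 genes, with the 95% interval (black) and the 7 values with 1 library left out (orange). The interval of Atp2b4 runs from −0.83 to −0.021 and those of the other 9 genes cross 0, that of Atp2b2 from −1.48 to 1.84.

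Atp2a2 (chromosome 5, 122453514 to 122502225, minus strand, mm10), the SERCA2 pump that refills the store after each contraction, had 13739, 10281 and 20582 normalised read counts in a3a6KO replicates 1 to 3 and 18079, 13971, 12294 and 16340.5 in Ctrl replicates 1 to 4. The a3a6KO libraries held both the highest and the lowest value, and the groups overlapped fully. The means were 14867 ± 5242 in a3a6KO (SD, n = 3) and 15171 ± 2552 in Ctrl (SD, n = 4). The log2 fold change was −0.07 (SE 0.24, 95% interval −0.62 to 0.48, limma adjusted p = 0.961), an interval that covers 0.649 to 1.39 times the Ctrl level.

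The SPCA pumps of the Golgi differed in how evenly they were expressed. Atp2c1 (chromosome 9, 105411363 to 105527321, minus strand) had 291, 287 and 306 in a3a6KO and 286, 272, 353 and 349 in Ctrl. Its a3a6KO values lay between the low and the high controls, and the log2 fold change was −0.09 (SE 0.15, limma adjusted p = 0.925). Atp2c2 (chromosome 8, 119700007 to 119757721, plus strand), the SPCA2 pump of secretory epithelium, had 1667, 1110.2 and 1418 in a3a6KO and 843, 779, 1700.3 and 2324 in Ctrl. Ctrl replicates 1 and 2 were the lowest libraries, Ctrl replicates 3 and 4 the highest, and all 3 a3a6KO libraries fell in the gap between them. The group means were close, at 1398 ± 279 in a3a6KO and 1412 ± 739 in Ctrl, with a log2 fold change of 0.12 (SE 0.37, 95% interval −0.72 to 0.96). Its sign turned with the count tests and with some libraries left out.

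Of the PMCA pumps, which expel calcium across the plasma membrane, Atp2b4 lay lower in a3a6KO, short of the adjusted threshold. Atp2b4 (chromosome 1, 133702674 to 133800755, minus strand), which encodes PMCA4, had 110.2, 145.04 and 110.3 in a3a6KO and 168, 168, 145.06 and 170.2 in Ctrl. The groups did not overlap, but a3a6KO replicate 2 and Ctrl replicate 3 were all but equal, at 110 and 158 reads before scaling. The means were 122 ± 20.1 in a3a6KO and 163 ± 11.8 in Ctrl, and the log2 fold change was −0.42 (SE 0.18, 95% interval −0.83 to −0.021, unadjusted p = 0.0413, limma adjusted p = 0.768). The log2 fold change of Atp2b4 stayed below 0 in all 18 alternatives, from −0.55 (without a3a6KO replicate 2) to −0.36. Its unadjusted p was under 0.05 in 11 of them, most of which reprocess the same 7 libraries, and its adjusted p went no lower than 0.511. With 1 library left out, the unadjusted limma p was under 0.05 only without a3a6KO replicate 2 (0.0196) or Ctrl replicate 3 (0.0390). It rose to 0.129 without a3a6KO replicate 1. The 15 endothelial markers all had a log2 fold change above 0, none passed the adjusted threshold, and their part in the value of Atp2b4 was not tested.

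Atp2b1 (chromosome 10, 98915151 to 99026143, plus strand), the PMCA1 pump found in most cells, had 115, 87.0 and 203 in a3a6KO and 121, 97.8, 118 and 126 in Ctrl. A high value in a3a6KO replicate 3 set the mean of 135 ± 60.4 in a3a6KO above that of 116 ± 12.5 in Ctrl. The log2 fold change of 0.14 (SE 0.28) was −0.20 without that library. Atp2b2 (chromosome 6, 113745669 to 114042080, minus strand), the PMCA2 pump of milk calcium, had 29.8, 52.7 and 71.2 in a3a6KO and 21.1, 13.7, 89.1 and 122 in Ctrl, from 36, 40 and 40 reads in a3a6KO and 21, 17, 97 and 161 in Ctrl. As for Atp2c2, Ctrl replicates 1 and 2 were the lowest libraries and Ctrl replicates 3 and 4 the highest. The mean of Atp2b2 was 51.2 ± 20.7 in a3a6KO and 61.4 ± 52.6 in Ctrl, whereas the log2 fold change, which averages on the log scale, was 0.18 (SE 0.73, 95% interval −1.48 to 1.84, limma adjusted p = 0.969). The direction for Atp2b2 thus depended on the scale, and the interval spans 0.357 to 3.58 times.

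Slc8a1 (chromosome 17, 81266210 to 81738387, minus strand), the NCX1 exchanger that trades calcium for sodium, was near the filter at 51.4, 21.1 and 33.8 in a3a6KO and 19.1, 19.4, 32.1 and 49.9 in Ctrl. It rested on 16 to 62 reads per library in a3a6KO and 19 to 66 in Ctrl. The groups overlapped, with the highest value in a3a6KO replicate 1, the next in Ctrl replicate 4, and Ctrl replicates 1 and 2 as the lowest libraries. The log2 fold change was 0.25 (SE 0.44, limma adjusted p = 0.925), and −0.056 without a3a6KO replicate 1.

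The store sensor Stim1 was the steadiest of the 10 among controls. Stim1 (chromosome 7, 102267804 to 102436853, plus strand) had 2707, 2213 and 2994 in a3a6KO and 2402, 2450.5, 2147 and 2441 in Ctrl. The 2 highest libraries were a3a6KO replicates 3 and 1, and a3a6KO replicate 2 lay among the controls. The means were 2638 ± 395 in a3a6KO and 2360.0 ± 144 in Ctrl, with a log2 fold change of 0.15 (SE 0.14, 95% interval −0.16 to 0.46, limma adjusted p = 0.873). Stim2 (chromosome 5, 53998523 to 54121056, plus strand) had 182, 150.3 and 209.9 in a3a6KO and 152, 142, 193 and 164 in Ctrl, with overlapping groups and a log2 fold change of 0.15 (SE 0.19). Without a3a6KO replicate 3 the log2 fold change was 0.054 for Stim1 and 0.034 for Stim2, and without a3a6KO replicate 2 it was 0.27 for both.

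Orai1 (chromosome 5, 123015073 to 123030452, plus strand), the pore of the store-operated channel, had 408, 447 and 447 in a3a6KO and 278, 249, 499 and 555 in Ctrl. All a3a6KO libraries lay above Ctrl replicates 1 and 2 and below Ctrl replicates 3 and 4. The means were 434 ± 22.1 in a3a6KO and 395 ± 154 in Ctrl, and the log2 fold change was 0.22 (SE 0.28, 95% interval −0.43 to 0.87, limma adjusted p = 0.902). It was 0.027 without Ctrl replicate 2 and 0.41 without Ctrl replicate 4. Per kilobase, Stim1 was 1.47, 1.10 and 1.48 times Orai1 in a3a6KO and 1.91, 2.18, 0.953 and 0.973 times in Ctrl.

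**Figure D3:**
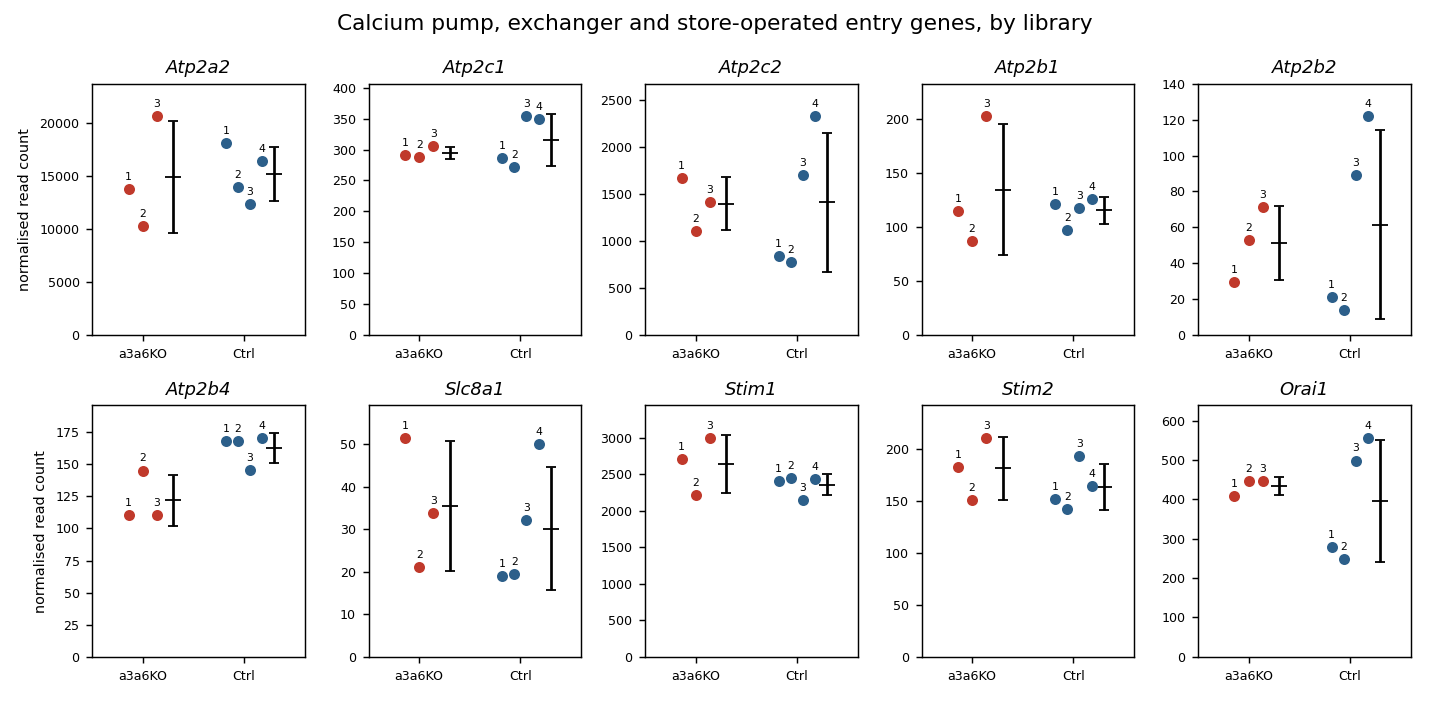
Normalised read count of each of the 10 genes in every library (numbered points, 3 a3a6KO on the left and 4 Ctrl on the right of each panel), with the group mean and SD beside them. The groups do not overlap for Atp2b4, and Ctrl replicates 1 and 2 lie below all other libraries for Atp2c2, Atp2b2 and Orai1. They are also the lowest, by a small margin, for Atp2c1 and Slc8a1.

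For 8 of the 10 genes the SD of the controls on the log2 scale was larger than the log2 fold change, the exceptions being Stim1 and Atp2b4. The highest control was 8.87 times the lowest for Atp2b2, 2.98 times for Atp2c2, 2.62 times for Slc8a1 and 2.23 times for Orai1, but 1.14 times for Stim1 and 1.17 times for Atp2b4. In a3a6KO the same ratio was 2.39 for Atp2b2, 1.50 for Atp2c2, 2.43 for Slc8a1 and 1.09 for Orai1. For Atp2a2 and Atp2b1 the a3a6KO libraries were the wider group, with ratios of 2.00 and 2.33 in a3a6KO and 1.47 and 1.29 in Ctrl. The SD of the 4 controls on the log2 scale was 1.50 for Atp2b2, and 2.21% of the tested genes had a larger one. For Stim1, 94.5% of the tested genes did.

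Milk transcripts, the immune list, the summed red blood cell genes and some luminal and fibroblast markers were higher in Ctrl replicates 3 and 4 than in replicates 1 and 2. The mean log2 level of the 10 milk genes was 11.67, 12.39 and 13.56 in a3a6KO replicates 1 to 3 and 12.53, 12.02, 14.16 and 14.64 in Ctrl replicates 1 to 4. That of the 12 luminal markers was 7.62, 7.90 and 8.44 in a3a6KO and 7.70, 7.11, 8.31 and 8.51 in Ctrl, although their summed level, led by the keratins, was highest in Ctrl replicate 1. The 5 immune markers tested averaged 6.02, 6.48 and 7.84 in a3a6KO and 5.71, 6.20, 7.47 and 7.67 in Ctrl on this scale. The 8 fibroblast markers averaged 9.51, 9.51 and 9.70 in a3a6KO and 8.83, 9.01, 10.15 and 9.30 in Ctrl. Among them Col1a1, Col1a2, Col3a1 and Lum were higher in both Ctrl replicates 3 and 4, whereas Pdgfra, Dpt and Fbln1 were mixed. Dcn, the most abundant, went the other way, with 11710, 11603, 10455 and 10356 normalised read counts in Ctrl replicates 1 to 4. The summed red blood cell genes had 25.1, 190, 242 and 359 in the same libraries. Atp2b2 followed the milk genes in having Ctrl replicates 4 and 3 and a3a6KO replicate 3 as its 3 highest libraries. It did not follow them in Ctrl replicate 1, which had more milk transcript than a3a6KO replicates 1 and 2 but less Atp2b2, 21.1 normalised read counts, than any a3a6KO library. Nor did it in Ctrl replicate 2, which had more milk transcript than a3a6KO replicate 1 but less Atp2b2, 13.7 against 29.8 normalised read counts. Atp2c2 and Slc8a1 departed from the milk genes in a3a6KO replicate 1. That library had the lowest milk level of all but the highest a3a6KO values of both genes, 1667 and 51.4 normalised read counts. The part of milk, luminal, immune, fibroblast and red blood cell transcripts in these values was not tested.

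**Figure D4:**
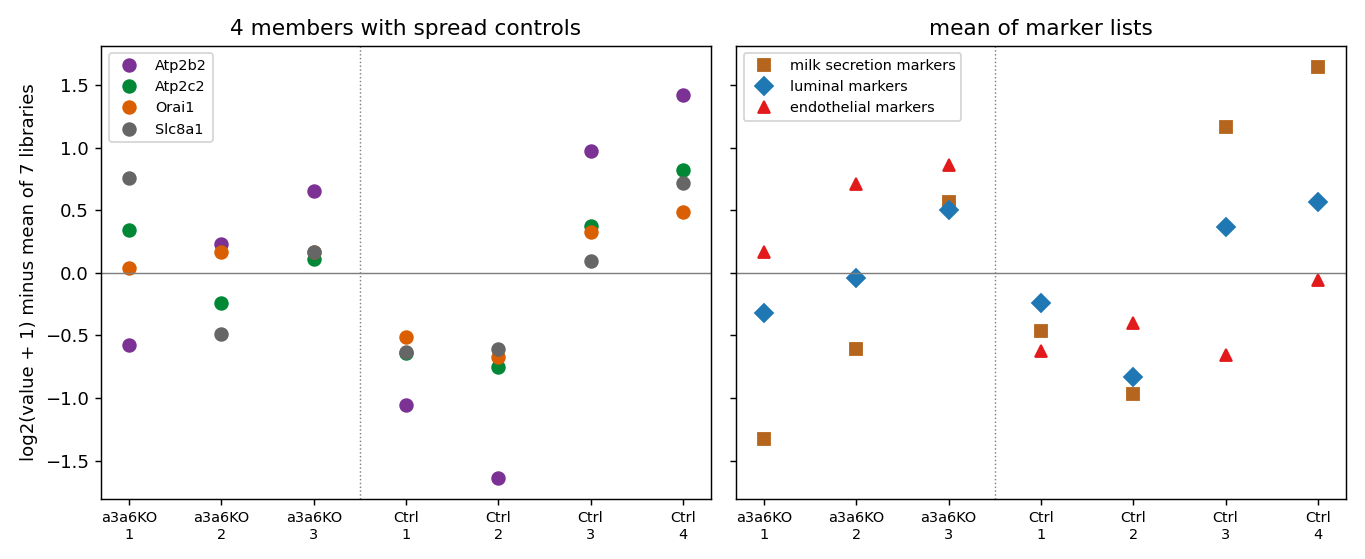
Deviation of each library from the mean of the 7 libraries on the log2(value + 1) scale, for 4 members (left) and for the mean of the milk secretion, luminal and endothelial marker lists (right), with the 3 a3a6KO libraries left of the dotted line and the 4 Ctrl libraries right of it. Atp2b2 spans from −1.64 in Ctrl replicate 2 to 1.42 in Ctrl replicate 4, and the milk secretion markers are likewise above their mean in Ctrl replicates 3 and 4, while endothelial markers are above their mean in all 3 a3a6KO libraries.

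The genes with the most similar library profiles were sought for the 3 members with the widest spread and a mean of at least 50, among 10353 genes, by the root mean square difference of log2 deviations over the 7 libraries. For Atp2b2 they were Scnn1b, a subunit of the epithelial sodium channel (0.22), Car4, a membrane-bound carbonic anhydrase (0.29), Ankrd1 (0.31), the proliferation marker Mki67 (0.33) and the tight junction claudin Cldn7 (0.37), itself 1 of the luminal markers. Scnn1b had 29.0, 43.5 and 55.2 normalised read counts in a3a6KO and 13.1, 10.5, 80.8 and 129 in Ctrl, the same order of libraries as Atp2b2. For Atp2c2 they were Itgb6, the β6 integrin subunit of epithelia (0.16), Cd320 (0.18), Ap3s1 (0.18), Usp31 (0.20) and Gk, glycerol kinase (0.20). For Orai1 they included Timm23 (0.14), the lysosomal protease Ctsd (0.14), Erlin1 (0.15) and Cd320 (0.15). Among the members, Atp2c2 was closest to Slc8a1 (0.22) and Orai1 (0.24), with 7 and 15 of the 10353 genes closer. Seen from Orai1, 129 genes were closer than Atp2c2, and Slc8a1 rested on 16 to 66 reads per library. The member closest to Atp2b2 was Atp2c2 (0.66), with 124 of the 10353 genes closer, and the SD of log2 values over the 7 libraries was 1.12 for Atp2b2 and 0.57 for Atp2c2.

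The promoters of Orai1 and Atp2b2, which shared the high and low controls with Atp2c2, are shown beside those of the steady Stim1 and of Atp2b4, from the RefSeq table for GRCm38.p6, which runs from 250 bases before to 50 after an annotated start. Of the 10 members 8 matched, with 12 starts in all; Atp2a2 and Atp2c2 did not match. Atp2c1 and Slc8a1, which also had Ctrl replicates 1 and 2 as their lowest libraries, matched but are not shown. Capitals mark TTCNNNGAA, the core bound by STAT dimers, and GGGCGG, the GC box, on either strand.
Orai1, chr5:123014824-123015123, plus strand: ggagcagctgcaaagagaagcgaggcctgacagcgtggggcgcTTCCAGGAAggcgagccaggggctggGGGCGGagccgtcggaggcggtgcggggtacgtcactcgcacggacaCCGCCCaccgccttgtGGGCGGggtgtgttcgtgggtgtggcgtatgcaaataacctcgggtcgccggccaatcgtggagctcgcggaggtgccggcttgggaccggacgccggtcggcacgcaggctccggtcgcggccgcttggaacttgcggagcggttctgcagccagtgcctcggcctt
Atp2b2, first of 3 starts, chr6:114042031-114042330, minus strand: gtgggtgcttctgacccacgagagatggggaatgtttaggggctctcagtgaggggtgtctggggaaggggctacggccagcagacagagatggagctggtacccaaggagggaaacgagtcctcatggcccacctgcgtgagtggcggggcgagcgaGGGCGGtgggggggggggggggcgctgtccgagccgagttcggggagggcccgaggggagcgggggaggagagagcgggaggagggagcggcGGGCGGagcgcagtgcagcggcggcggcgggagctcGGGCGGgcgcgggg
Stim1, chr7:102267569-102267868, plus strand: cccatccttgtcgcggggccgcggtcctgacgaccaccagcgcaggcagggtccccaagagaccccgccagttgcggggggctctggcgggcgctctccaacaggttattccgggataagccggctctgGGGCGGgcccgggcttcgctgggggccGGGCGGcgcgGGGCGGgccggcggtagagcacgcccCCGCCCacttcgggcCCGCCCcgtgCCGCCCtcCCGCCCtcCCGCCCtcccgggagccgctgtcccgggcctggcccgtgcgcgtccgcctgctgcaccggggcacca
Atp2b4, chr1:133753698-133753997, minus strand, a start inside the gene model of the table: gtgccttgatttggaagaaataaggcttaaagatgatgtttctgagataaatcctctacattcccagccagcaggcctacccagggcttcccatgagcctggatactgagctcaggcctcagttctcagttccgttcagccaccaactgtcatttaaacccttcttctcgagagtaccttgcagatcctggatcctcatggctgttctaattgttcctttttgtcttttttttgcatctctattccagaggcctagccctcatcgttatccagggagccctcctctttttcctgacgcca

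TTCNNNGAA was found in the Orai1 promoter, from base 44 of 300, and in none of the other 11 member promoters, against 8.30% of 32851 promoters of that length. GGGCGG occurred 3 times in Orai1, 3 times in the first Atp2b2 promoter, 8 times in Stim1 and 0 times in Atp2b4. At the member starts not shown, it occurred 0 and 4 times in Atp2c1, 4 and 3 in Atp2b1 and 0 and 2 in Atp2b2. It occurred 3 times in Stim2 and 0 times in Slc8a1. It was thus absent from the first Atp2c1, the second Atp2b2, the Atp2b4 and the Slc8a1 promoter, and present at least once in the other member promoters. Of all promoters, 35.7% held it at least once. The TATA motif TATAAA, present in 13.6% of all promoters, was in none of the 12. These are matches of letters in these windows only.

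Within families the mix of isoforms was described as a share of the summed level per kilobase. Atp2b2 made up 12.5%, 19.2% and 20.2% of the PMCA level in a3a6KO and 7.16%, 5.13%, 26.5% and 30.3% in Ctrl. Atp2b4 had the largest share in every library but a3a6KO replicate 3, where Atp2b1 led with 47.6% against 32.2%; with the longest transcript as length, Atp2b1 led in 5 of the 7 libraries. Atp2c2 made up 94.5%, 92.1% and 93.3% of the SPCA level in a3a6KO and 89.9%, 89.6%, 93.5% and 95.2% in Ctrl. Stim2 made up 12.2% ± 0.227 of the STIM level in a3a6KO (SD, n = 3) and 12.3% ± 2.14 in Ctrl (SD, n = 4). With the longest transcript as length, the share of Stim2 was 5.71% ± 0.115 in a3a6KO and 5.78% ± 1.09 in Ctrl, and that of Atp2c2 89.0% ± 1.91 in a3a6KO and 87.2% ± 4.30 in Ctrl. The shares overlapped between the groups in each family, and their precision beyond counting is limited by the gene models.

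Among 58 other calcium genes (other pumps and exchangers, entry partners, pump regulators, store buffers, release channels, mitochondrial uptake and membrane channels) that passed the filter on low values, of 85 listed names, 30 had a log2 fold change above 0 and 28 below, with a median of 0.014, and 0 passed the adjusted limma threshold. Of the 58, 6 or 10.3% had an unadjusted p under 0.05, where 6.32% of all tested genes did, and 8 had groups without overlap, where 7.51% of all tested genes did. The 4 with the smallest p were Cacna1g, Vdac1, Atp2a3 and Micu2. Cacna1g, a T-type calcium channel, had 150.0, 202 and 231 in a3a6KO and 96.4, 87.3, 89.1 and 113 in Ctrl, and its log2 fold change was 0.99 (SE 0.21, limma adjusted p = 0.515). Every a3a6KO library lay above every control. Atp2a3, the SERCA3 pump, which is known from endothelial and blood cells, had 101, 113 and 126 in a3a6KO and 42.2, 37.2, 56.0 and 93.8 in Ctrl (1.06, SE 0.32, limma adjusted p = 0.621). Its groups did not overlap either, and the sums of endothelial and red blood cell markers did not overlap between the groups in the same direction, a part that was not tested.

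The mitochondrial genes among the 4 lay the other way. Vdac1, the channel of the outer membrane, had 905, 982 and 1073 in a3a6KO and 1336, 1316, 1587 and 1461 in Ctrl (−0.53, SE 0.13, limma adjusted p = 0.551). Micu2, a gatekeeper of the calcium uniporter, had 862, 885 and 817 in a3a6KO and 1267, 1147, 1327 and 959 in Ctrl (−0.45, SE 0.14, limma adjusted p = 0.647). Neither had overlapping groups. Of the 9 mitochondrial uptake genes tested 4 were above 0 and 5 below. The 4 with the highest mean normalised read count of the 58, not corrected for length, were the store chaperones Calr (0.37, SE 0.32) and Canx (0.17, SE 0.15), the Golgi calcium binder Nucb1 (0.20, SE 0.11) and Nptn, a partner protein of PMCA pumps (0.099, SE 0.11). Nucb1 had 5181, 4933 and 5325 in a3a6KO and 4662, 4206, 4639 and 4406 in Ctrl, without overlap (limma adjusted p = 0.797). Of the 4 release channels tested 3 were above 0 and 1 below, and of the 13 store-operated entry partners and regulators 6 were above 0 and 7 below.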

How the data were processed

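RNA of sorted mammary basal cells was made into libraries with SMARTer v4 chemistry, per the labels. The authors deposited a table of signal values on build mm10, titled as DESeq2-normalised: counts of each gene after division by a size factor per library. Their processing notes list STAR 2.4.0, FastQC, Picard, SAMtools and DESeq2 without saying what each did. The read counter is named nowhere in the labels. All values (100%) came out as whole multiples of a library's own step, within 0.01 of a read, so the reads behind them were recovered; 61.8% to 63.8% of recovered counts from 1 to 20 were even, so recovered reads, the input of edgeR and DESeq2, may overstate the number of independent fragments. Replicate numbers were given here in accession order and pair no libraries.

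Limma 3.58.1 (R 4.3.3) was fitted with a trend to log2(value + 1) of 16889 genes reaching 10 in 3 or more of the 7 libraries. Alternatives were edgeR 4.0.16 and DESeq2 1.42.0 on the recovered reads, pseudocounts of 0.5 and 5, other filters and scalings, library weights, summed symbol rows and leaving out each library. The code was tested on simulated data. There limma recovered 92.5% of 4-fold, 26.9% of 2-fold and 3.03% of 1.5-fold changes at the adjusted threshold, and it also called 11 unchanged genes. Small changes would thus mostly be missed. Exon lengths came from GENCODE M21 and promoters from RefSeq. The p-values set the difference between the groups against the spread between libraries within them. The submitters call the libraries biological replicates without naming animals, so whether each is a separate animal is not given. All 10 members were named, with the 4 other calcium genes of smallest p, the 4 of highest mean, and the 5 genes nearest in profile to each of 3 members, of which 1 is not reported here. Members, calcium gene lists and marker lists (basal, luminal, milk, endothelial, pericyte, fibroblast, immune, red blood cell) were chosen with earlier results of these data known.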

Additional observations from a re-analysis of the deposited data

Results flagged for a closer look

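Ctrl replicate 3 stood apart from the other controls for 2 of the 10 genes, by the ratio of its gap to the range of the group. For Atp2b4 it had 145.06 normalised read counts, against 168 to 170.2 in the other controls, and its gap made up 0.900 of the range of the 4 libraries. For Stim1 it had 2147, against 2402 to 2450.5, with a gap of 0.840 of the range. In all 29 sets of controls were examined this way, and chance alone marks about 5% of such sets. Without Ctrl replicate 3 the log2 fold change was −0.48 for Atp2b4 and 0.11 for Stim1.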

How the results depend on the processing

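Over 18 alternatives, 165 of 179 member values kept their direction, 14 reversed, and none passed the adjusted threshold; Slc8a1 could not be fitted with the filter at 50. The count of all genes called was 0 with limma and edgeR and 73 with DESeq2; 1068 and 1031 genes had an unadjusted p under 0.05 in limma and edgeR. The log2 fold change of Atp2b2 was −0.30 with edgeR and −0.29 with DESeq2, and that of Atp2c2 −0.020 and −0.022. Leaving out 1 library gave −0.34 (without Ctrl replicate 2) to 0.68 (without Ctrl replicate 4) for Atp2b2, with −0.15 without Ctrl replicate 1 and −0.098 without a3a6KO replicate 3. It gave −0.11 to 0.41 for Atp2c2, by the same 2 controls, with −0.077 without Ctrl replicate 1 and −0.017 without a3a6KO replicate 1. For Atp2a2 it gave −0.34 to 0.16 (without a3a6KO replicates 3 and 2), and 0.017 without Ctrl replicate 1. For Atp2c1 the range was −0.15 to −0.029, for Atp2b1 −0.20 to 0.40 and for Slc8a1 −0.056 to 0.57. The members' median was −0.040 (without Ctrl replicate 2) to 0.24 (without a3a6KO replicate 2), and −0.032 without a3a6KO replicate 3. The causes were not tested. No paired analysis was possible because the labels give no replicate numbers; those printed follow accession order and only name the libraries. Atp2b2 and Slc8a1 rested on the fewest reads, 17 to 161 and 16 to 66 per library.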

Other observations

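The other ORAI genes were measured alongside Orai1 and were chosen for mention after their values were seen. Orai3, whose channel can also open without store depletion, had the highest level of the family per kilobase of exon in every library, with 630, 642 and 543 in a3a6KO and 813, 612, 647 and 590.4 in Ctrl. Orai1 came next at 178, 195 and 195 in a3a6KO and 121, 108, 217 and 242 in Ctrl, and Orai2 was the lowest at 45.5, 71.2 and 56.5 in a3a6KO and 82.8, 58.2, 50.3 and 50.7 in Ctrl. Among the controls, replicates 3 and 4 had the highest Orai1 and the lowest Orai2 levels. The log2 fold change was −0.13 (SE 0.15, limma adjusted p = 0.893) for Orai3 and −0.060 (SE 0.22, limma adjusted p = 0.965) for Orai2.

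Cacnb3, a regulatory subunit of voltage-gated calcium channels, was also picked after its values were seen. It had 638, 814 and 726 normalised read counts in a3a6KO and 1776, 1376, 1078 and 812 in Ctrl, with Ctrl replicate 4 just under a3a6KO replicate 2 (−0.74, SE 0.25, limma adjusted p = 0.685). Casq2, a calcium buffer known from cardiac muscle stores, had 1292, 994 and 996 in a3a6KO and 1422, 1509, 1441 and 1242 in Ctrl (−0.37, SE 0.14, limma adjusted p = 0.738).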
